A study of Mus musculus with 12 samples.

Results

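Axon guidance ligands and receptors were followed in N2a cells, a neuroblastoma line of the mouse, treated with vesicles from brain. They were taken as every row of both deposited FPKM tables whose gene name belonged to the plexin, neuropilin, semaphorin (classes 3 to 7), Slit, Robo, netrin, Unc5 or Dcc, ephrin or Eph receptor families. This gave 70 of 24318 rows, 69 genes and the antisense RNA Plxna4os1, and 34 of the 70 averaged 1 FPKM or more across the 12 libraries and are called expressed here. The libraries came from cells given SE-BDEV (4 libraries), CON-BDEV (4 libraries) or Vehicle (4 libraries), where BDEV stands for brain-derived extracellular vesicle and SE, from the title of the series, for status epilepticus, a prolonged seizure. The labels give no dose, time, vesicle donor or meaning of CON, and do not tell whether a group's libraries come from different cultures or vesicle batches. The p-values therefore reflect the spread among these libraries alone, which may be technical. All 3 groups share the 1 cell line, and no condition beyond the vesicle or vehicle treatment is labelled. The library names number SE-BDEV and CON-BDEV libraries in turn and the Vehicle libraries after all of them. What this order stands for is not labelled. Differences from Vehicle cannot be told apart from it, and its part was not tested.

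Axon guidance cues are secreted or membrane-bound proteins that steer growing axons, and migrating cells, by attraction or repulsion through receptors on their surface. Semaphorins signal through plexins, and secreted class 3 semaphorins mostly need a neuropilin as co-receptor; Slits act on Robo receptors, netrins on Dcc and Unc5 receptors, and ephrins on Eph receptors, where the ephrin can also signal back into its own cell. The same families act outside the nervous system, in blood vessel growth and in cell adhesion.

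FPKM counts fragments per kilobase of transcript and per unit of mapped fragments, so that levels can be set side by side between genes. Library totals were not part of the tables used here; estimated from the smallest nonzero values, depth was about 12700000 to 15200000 fragments in the SE-BDEV, 12500000 to 14200000 in the CON-BDEV and 14800000 to 16300000 in the Vehicle libraries. The cell identity was checked on 19 genes of sympathetic and neuroblastoma cells, of which 17 were expressed, among them the transcription factor genes Phox2a and Hand2 (means of 89.8, 95.1 and 79.7 FPKM for Phox2a and 177, 187 and 158 FPKM for Hand2 in SE-BDEV, CON-BDEV and Vehicle cells). Genes of other brain cells were mostly near 0: 0 of 8 astrocyte, 1 of 8 microglia (Tmem119), 1 of 8 endothelial (Pecam1), 3 of 8 oligodendrocyte, 4 of 11 forebrain neuron and 0 of 6 red blood cell genes were expressed.

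Expression was uneven between the partners of a pathway. Both neuropilins, all 3 Slits, 7 of 9 plexins, 3 of 5 netrin receptors, 11 of 20 semaphorins, 4 of 8 ephrins, 3 of 14 Eph receptors, 1 of 4 netrins and 0 of 4 Robo receptors were expressed. That is 48.6% of the rows, against 46.5% of all rows of the tables (11312 of 24318). Unc5b, a netrin receptor of the Unc5 family, had the highest level at 61.1 FPKM over the 12 libraries, a level that 13.4% of all expressed genes exceeded. The plexins Plxnb2 (50.1 FPKM) and Plxna1 (41.6 FPKM) followed, and then Unc5c (34.7 FPKM) and the secreted Slit3 (34.1 FPKM), whose ranges over the libraries overlapped.

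**Figure D1:**
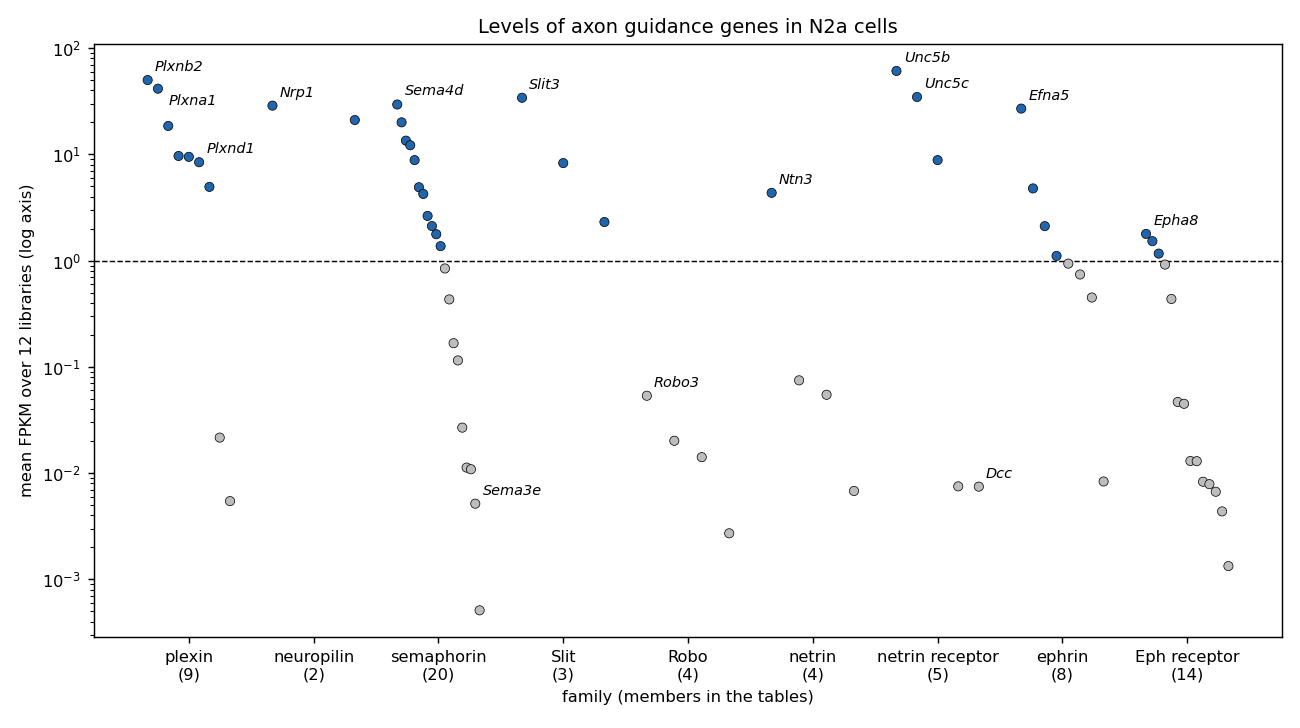
Mean FPKM over 12 libraries (log axis) of the axon guidance genes by family, with the number of members in the tables under each name; each point is 1 gene, blue at or above 1 FPKM (dashed line) and grey below it, and the antisense RNA is not drawn. The highest points are Unc5b at 61.1 FPKM and Plxnb2 at 50.1 FPKM, and all 4 Robo receptors lie below the line, at most at 0.0535 FPKM.

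Sema4d, a membrane-bound semaphorin (29.5 FPKM), the co-receptor Nrp1 (28.8 FPKM), the GPI-anchored ephrin Efna5 (27.0 FPKM) and Nrp2 (21.1 FPKM) were the next in the order, and of these Efna5 and Nrp2 did not overlap in any library. Sema4c (20.05 FPKM), Plxna3 (18.5 FPKM), Sema4b (13.5 FPKM) and Sema6d (12.2 FPKM) were at intermediate levels. Plxnc1, Plxna4, Unc5a, Sema4a, Plxnd1 and Slit2 lay between 8.30 and 9.67 FPKM, and each overlapped its neighbours in that order. Plxnb1, Sema3f, Efna2, Ntn3 and Sema6a lay between 4.25 and 4.95 FPKM. Sema3g, Slit1, Sema6b, Efna1, Epha8, Sema4g, Ephb4, Sema6c, Ephb3 and Efna3 lay between 1.11 and 2.64 FPKM. Of neighbours in the whole order, only Unc5b over Plxnb2, Efna5 over Nrp2, Plxna3 over Sema4b, Sema6d over Plxnc1 and Slit2 over Plxnb1 had ranges over the 12 libraries that did not overlap.

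Several receptors or ligands were expressed while their best known partner was close to 0. The Slits stood without Robo receptors: Robo3 was the highest of these at a mean of 0.0535 FPKM and at most 0.114 FPKM in any library, and Robo1 was listed at 0 in 4 libraries and Robo4 in 10. The 3 expressed Unc5 receptors stood without Dcc, the attractive netrin receptor, which had a mean of 0.00747 FPKM and was listed at 0 in 5 libraries, and without Unc5d at 0.0075 FPKM. Other netrin receptors whose names fall outside the member families were expressed, Neo1 at 42.4 FPKM and Dscam at 1.17 FPKM. Of the netrins, Ntn3 was expressed, while Ntn1, the form best known in the developing spinal cord, reached at most 0.125 FPKM. Sema3e, the main semaphorin ligand of plexin D1, had at most 0.0186 FPKM and was listed at 0 in 7 libraries, and Sema7a, the ligand of plexin C1, had at most 0.335 FPKM. At these depths values near 0 stand for few fragments. Ntn1 and Sema7a were above 0 in every library. For the members listed at 0 in some libraries, a low level could not be told from none. All these values describe RNA in the treated cells only.

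Of the 36 members below 1 FPKM, 23 stayed below 0.1 FPKM in every library, 9 reached between 0.1 and 1 FPKM, and 4 reached at least 1 FPKM in some library; 26 were listed at 0 in at least 1 library. Just below the level were Sema4f (0.845 FPKM), Epha10 (0.919 FPKM) and Efnb2 (0.939 FPKM), and just above it Efna3 (1.11 FPKM) and Ephb3 (1.17 FPKM). Efnb2, a transmembrane ephrin, had 0.936, 0.705, 0.779 and 0.763 FPKM in SE-BDEV libraries 1 to 4, 1.03, 0.925, 0.912 and 0.908 FPKM in CON-BDEV libraries and 1.10, 1.02, 0.958 and 1.23 FPKM in Vehicle libraries. Its SE-BDEV libraries were all below its Vehicle libraries. In the authors' deposited table its log2 fold change was -0.44 with a q-value of 0.212 for SE-BDEV. For CON-BDEV it was -0.19 with a q-value of 0.736. Efnb2 passed the level only over the CON-BDEV and Vehicle libraries, so 35 members were tested there and 34 in the other fits.

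The groups were compared to see which of these genes differ in cells given either kind of vesicle. Plxnd1, the plexin that binds Sema3e and is known from blood vessel patterning, was the member with the largest difference and rose with both kinds. It lies at chr6:115904828-115945023 (mm9, as deposited), and no other row of the tables overlaps it. Its levels were 9.09, 9.83, 10.4 and 8.89 FPKM in SE-BDEV libraries, 9.18, 8.43, 8.68 and 9.81 FPKM in CON-BDEV libraries, and 6.12, 6.72, 6.63 and 7.65 FPKM in Vehicle libraries. Every library of both vesicle groups was above every Vehicle library, while the vesicle groups overlapped each other. The means were 9.54 ± 0.675 FPKM for SE-BDEV, 9.03 ± 0.612 FPKM for CON-BDEV and 6.78 ± 0.638 FPKM for Vehicle (SD, n = 4 each), so that SE-BDEV was 40.7% and CON-BDEV 33.1% above Vehicle.

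The test was limma on log2(FPKM + 1) over all genes that averaged 1 FPKM or more in the libraries of the fit, two-sided, with Benjamini-Hochberg adjustment over those genes and a threshold of 0.05; differences below are on this log2 scale, which understates the change of low genes. Plxnd1 differed by 0.44 ± 0.07 (standard error; 95% interval 0.29 to 0.59; adjusted p = 0.0178 in limma) between SE-BDEV and Vehicle. Between CON-BDEV and Vehicle it differed by 0.37 ± 0.07 (0.22 to 0.51; adjusted p = 0.0158). In the authors' deposited table its log2 fold change was 0.49 with a q-value of 0.00686 for SE-BDEV and 0.41 with a q-value of 0.00505 for CON-BDEV. The call for SE-BDEV ended without SE-BDEV library 3 (adjusted p = 0.0529 in limma) or Vehicle library 1, 2 or 3 (0.0799, 0.0731 and 0.0703), and that for CON-BDEV without its library 4 (0.0529) or Vehicle library 1 or 3 (0.0532 and 0.0575). Without the filter on low values it missed the threshold in both comparisons (0.0751 with SE-BDEV and 0.0575 with CON-BDEV). In the fit of all 12 libraries, where both vesicle groups were set against Vehicle, it differed by 0.40 ± 0.06 (adjusted p = 0.00229) and stayed below the threshold whichever library was left out (0.00236 to 0.0154).

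Plxnd1 was the 1 member of 34 called between SE-BDEV and Vehicle, and 0 fell; of all 11311 genes tested there, 0.919% were called, 0.292% upward and 0.628% downward. At an unadjusted p under 0.05 there were 7 members, 20.6% against 14.8% of all genes. The members' median difference was 0.04, against 0.01 over all genes, and 18 of 34 (52.9%) were higher in SE-BDEV cells, against 54.6% of all genes.

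Between CON-BDEV and Vehicle, 3 of 35 members rose and 0 fell, against 2.84% of 11320 genes called, 1.02% upward and 1.82% downward. They were Plxnd1, Slit3 and Nrp1. The authors' deposited table called the same 3, of 38 members tested there, against 1.805% of its 11912 genes tested. At an unadjusted p under 0.05 there were 11 members, 31.4% against 19.1% of all genes. The median difference was 0.03, against 0.00 over all genes, and 20 of 35 (57.1%) were higher in CON-BDEV cells, against 52.0% of all genes. The comparisons with Vehicle share the 4 Vehicle libraries, so the like values of a gene in both are not independent.

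Slit3, a secreted ligand of Robo receptors, lies at chr11:34934957-35522009 (mm9), where its locus also holds the microRNA gene Mir218-2, listed at 0. It had 34.3, 39.3, 34.3 and 36.5 FPKM in SE-BDEV libraries, 32.6, 37.5, 36.6 and 36.6 FPKM in CON-BDEV libraries, and 31.0, 29.5, 30.9 and 30.5 FPKM in Vehicle libraries. The Vehicle libraries were the lowest 4 of the 12. Means were 36.1 ± 2.39, 35.8 ± 2.21 and 30.5 ± 0.688 FPKM (SD, n = 4 each) in SE-BDEV, CON-BDEV and Vehicle cells. The rise of 0.22 ± 0.04 in CON-BDEV cells passed the test (95% interval 0.13 to 0.32; adjusted p = 0.0238 in limma). The difference of 0.23 ± 0.05 in SE-BDEV cells missed the threshold (0.13 to 0.34; adjusted p = 0.0515), and passed it without SE-BDEV library 2 (0.0254), with a mean of 5 FPKM or more (0.0442) and with median scaling (0.0467). In CON-BDEV cells the call ended without CON-BDEV library 3 or 4 (0.0669 and 0.0767) or any 1 of the Vehicle libraries (0.0634 to 0.0776), without the filter on low values (0.0593) and without the mean-variance trend (0.0569).

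Nrp1, the co-receptor for class 3 semaphorins and for vascular endothelial growth factor, lies at chr8:130882972-131029375 (mm9), where the microRNA gene Mir1903 overlaps it and is listed at 0. It had 30.4, 26.4, 32.5 and 29.8 FPKM in SE-BDEV libraries, 32.4, 28.4, 30.4 and 31.2 FPKM in CON-BDEV libraries, and 24.4, 26.8, 26.6 and 26.4 FPKM in Vehicle libraries. All CON-BDEV libraries were above all Vehicle libraries, whereas SE-BDEV library 2 was within the Vehicle range. Means were 29.8 ± 2.52, 30.6 ± 1.68 and 26.03 ± 1.07 FPKM in SE-BDEV, CON-BDEV and Vehicle cells (SD, n = 4 each). Nrp1 rose by 0.23 ± 0.05 in CON-BDEV cells (0.13 to 0.32; adjusted p = 0.0266 in limma), and the difference of 0.18 ± 0.06 in SE-BDEV cells did not pass (0.05 to 0.32; adjusted p = 0.183; 0.0250 without SE-BDEV library 2). In CON-BDEV cells the call ended without CON-BDEV library 3 or 4 (0.0616 and 0.0825) or any 1 of the Vehicle libraries (0.0553 to 0.0834), without the filter on low values (0.0645) and without the mean-variance trend (0.0594). Nrp2, the other neuropilin, had 21.6 ± 1.01, 20.8 ± 1.12 and 20.9 ± 0.549 FPKM in SE-BDEV, CON-BDEV and Vehicle cells and was not called.

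**Figure D2:**
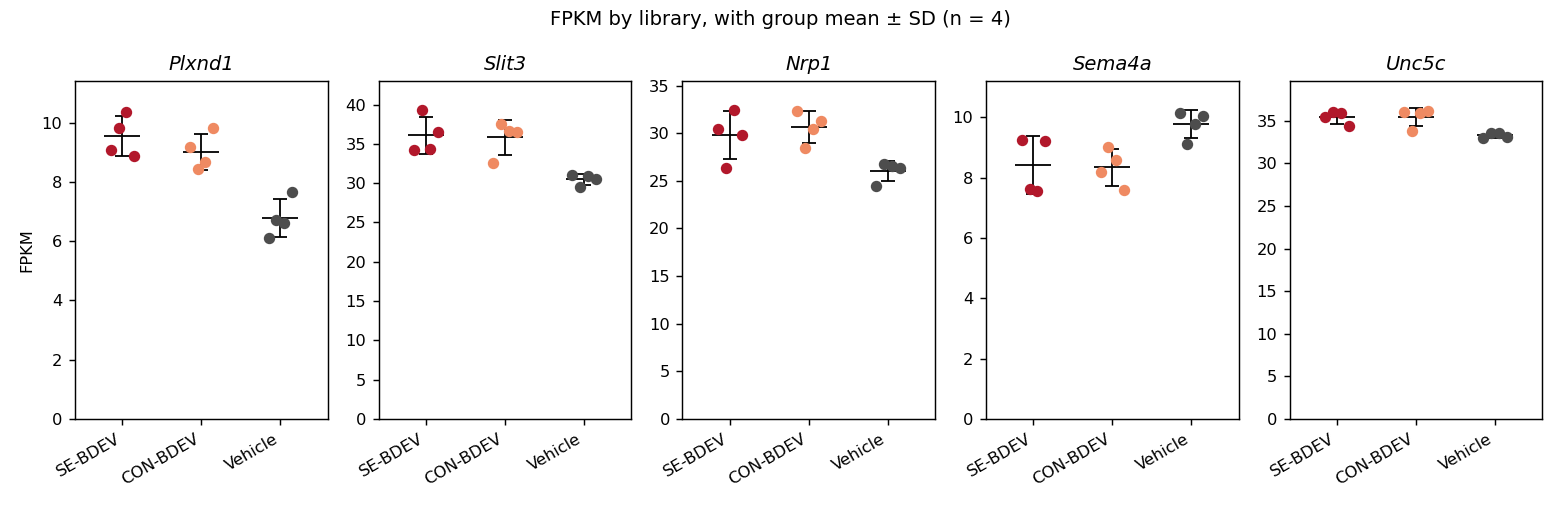
FPKM by library (points) of Plxnd1, Slit3, Nrp1, Sema4a and Unc5c in SE-BDEV, CON-BDEV and Vehicle cells, each panel on its own axis from 0, with the group mean and SD (n = 4). For Plxnd1, Slit3 and Unc5c all 8 vesicle libraries lie above the Vehicle libraries; Sema4a and Unc5c were not called.

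The 250 bases before the start of the 3 genes called between CON-BDEV and Vehicle are shown, with each match to the GC box GGGCGG on either strand in capitals (on the other strand it reads CCGCCC). The sequences are RefSeq's on GRCm38.p6 and run 5′ to 3′ on the gene's strand, at chr6:115995006-115995255 (minus strand) for Plxnd1, chr11:35121206-35121455 (plus strand) for Slit3 and chr8:128358823-128359072 (plus strand) for Nrp1.
Plxnd1: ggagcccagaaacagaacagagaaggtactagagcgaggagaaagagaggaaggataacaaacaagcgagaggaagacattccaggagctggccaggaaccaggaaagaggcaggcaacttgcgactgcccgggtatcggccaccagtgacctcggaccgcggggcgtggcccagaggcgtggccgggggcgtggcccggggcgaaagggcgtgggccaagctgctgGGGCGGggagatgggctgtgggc
Slit3: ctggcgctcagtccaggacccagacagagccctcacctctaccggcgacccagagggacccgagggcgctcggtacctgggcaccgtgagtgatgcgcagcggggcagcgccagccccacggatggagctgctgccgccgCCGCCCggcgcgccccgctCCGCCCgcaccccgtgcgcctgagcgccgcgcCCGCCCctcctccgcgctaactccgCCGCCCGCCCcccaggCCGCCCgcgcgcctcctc
Nrp1: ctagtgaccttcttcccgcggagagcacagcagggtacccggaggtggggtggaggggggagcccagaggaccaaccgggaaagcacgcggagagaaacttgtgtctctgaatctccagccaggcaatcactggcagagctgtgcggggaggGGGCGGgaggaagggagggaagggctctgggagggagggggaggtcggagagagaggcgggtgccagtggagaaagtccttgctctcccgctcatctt
Plxnd1 and Nrp1 each held 1 match and Slit3 held 6, of which a pair overlap each other; GC content was 64.8%, 64.4% and 78.8% and the number of CpG pairs 16, 11 and 35 in Plxnd1, Nrp1 and Slit3. The motif was common: it stood in 36 of 42 such stretches (85.7%) of the 29 expressed members with an entry, and in 32.7% of all 32851 stretches, whose median GC content was 52.4% against 64.8% for the members. Of the other motifs searched on both strands, CACGTG stood in 7.14% of the members' stretches against 6.02% of all, and CCAAT in 16.7% against 33.9%. TGACGTCA and TCACCCCAC stood in 0 of the 42, against 1.55% and 0.496% of all. The overlap of a motif with another one was not searched, and a match is a description of these letters, not of a bound factor.

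With both vesicle groups set against Vehicle in 1 fit, the same 3 members rose and 0 of 34 fell, against 3.37% of all genes called (1.53% upward and 1.84% downward). Slit3 differed by 0.23 ± 0.04 (adjusted p = 0.0128 in limma) and Nrp1 by 0.20 ± 0.05 (adjusted p = 0.0431). Without Vehicle library 2 the Slit3 call was lost (0.0597), and the Nrp1 call held only without SE-BDEV library 2 or CON-BDEV library 2, with an adjusted p of up to 0.166 otherwise; it was also lost without the filter (0.0797) and without the trend (0.0607). A test for any difference over the 3 groups called Plxnd1 (adjusted p = 0.00878) and Slit3 (0.0463), 2 of 34 members against 1.35% of all genes; with 1 library left out it kept the Plxnd1 call in 10 of 12 fits (adjusted p up to 0.0522) and the Slit3 call in 3 (up to 0.192). Other values stood beside these: of the 17 neuroblastoma genes expressed, 3 rose and 1 fell in SE-BDEV cells (0.919% of all genes called) and 7 rose and 2 fell in CON-BDEV cells (2.84% of all genes called), with a summed level of 2220 to 2381, 2286 to 2367 and 2359 to 2383 FPKM per library in SE-BDEV, CON-BDEV and Vehicle. The endothelial list, of interest since Plxnd1 and Nrp1 are also genes of vessels, summed to 3.34 to 4.20, 3.85 to 4.29 and 3.30 to 4.21 FPKM, with Cldn5 and Slco1a4 listed at 0 in every library. The part of the neuroblastoma genes, and of the estimated depth, which was lower in most vesicle libraries, was not tested.

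Without regard to a test, every SE-BDEV library was above every Vehicle library for 5 members, Efna5, Plxna4, Plxnd1, Slit3 and Unc5c (5 of 34, against 5.77% of all genes), and below for Plxna3 (4.39% of all genes). Members too low for that fit, such as Efnb2 (below Vehicle) and Sema3a (above Vehicle), were not counted. For CON-BDEV this held for 7 of 35 members above Vehicle, Ephb3, Nrp1, Plxnc1, Plxnd1, Sema3f, Slit3 and Unc5c (5.68% of all genes), and for 5 below, Ephb4, Plxna3, Plxnb2, Sema4a and Sema4d (6.24% of all genes). Plxnd1, Slit3 and Unc5c were above Vehicle in all 8 vesicle libraries (2.52% of all genes) and Plxna3 below (2.67%).

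Among the other plexins, Plxna4, a class A plexin that pairs with neuropilins (chr6:32094558-32538192), had 9.51, 9.02, 11.2 and 9.76 FPKM in SE-BDEV, 10.8, 8.74, 10.2 and 10.1 FPKM in CON-BDEV and 8.38, 8.50, 8.88 and 8.79 FPKM in Vehicle libraries. The SE-BDEV libraries stood above Vehicle and the CON-BDEV libraries overlapped it by 1; the differences of 0.17 (adjusted p = 0.233 in limma) and 0.18 (0.120; 0.0207 without CON-BDEV library 2) were not called. Its antisense RNA Plxna4os1 was at most at 0.0378 FPKM. Plxna3, another class A plexin (chrX:71574404-71590028), had 18.3, 18.5, 17.4 and 18.6 FPKM in SE-BDEV, 17.6, 18.6, 18.2 and 18.1 FPKM in CON-BDEV and 19.8, 19.1, 19.3 and 19.1 FPKM in Vehicle libraries, the reverse order, with no call (-0.08, adjusted p = 0.347; -0.09, 0.180).

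Plxnc1, a receptor of Sema7a (chr10:94253611-94407212), had 9.79, 10.0003, 9.40 and 10.2 FPKM in SE-BDEV, 10.1, 10.2, 9.68 and 9.91 FPKM in CON-BDEV and 9.54, 8.96, 9.28 and 9.05 FPKM in Vehicle libraries; only the CON-BDEV group was clear of Vehicle, and neither difference passed. Plxnb2, a class B plexin for class 4 semaphorins (chr15:88985975-89011218), had 52.0, 44.9, 51.2 and 54.3 FPKM in SE-BDEV, 49.2, 49.4, 48.6 and 49.2 FPKM in CON-BDEV and 49.9, 50.7, 50.6 and 51.7 FPKM in Vehicle libraries. Its SE-BDEV libraries spread on both sides of Vehicle while its CON-BDEV libraries were the tightest of any member in that group, with a coefficient of variation of 0.664%. Plxna1, a class A plexin, averaged 42.7 ± 5.52, 41.4 ± 2.45 and 40.6 ± 1.34 FPKM in SE-BDEV, CON-BDEV and Vehicle cells (SD, n = 4 each) and was not called.

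Of 11 expressed semaphorins, limma called 0 with all libraries in the fit. At an unadjusted p under 0.05, 1 was higher and 1 lower in SE-BDEV than in Vehicle cells, against 14.8% of all genes, and 1 higher and 2 lower in CON-BDEV than in Vehicle cells, against 19.1% of all genes. Sema4a, a membrane-bound class 4 semaphorin (chr3:88239883-88265104), had 9.26, 7.61, 7.57 and 9.21 FPKM in SE-BDEV, 8.17, 9.02, 8.58 and 7.58 FPKM in CON-BDEV and 10.1, 9.13, 9.79 and 10.05 FPKM in Vehicle libraries. Its difference of -0.20 (adjusted p = 0.226 in limma) was the lowest of the 34 members tested between SE-BDEV and Vehicle, where Efnb2 was not tested. In CON-BDEV cells Sema4a differed by -0.21 (0.0744), and by -0.24 (0.0413) without CON-BDEV library 2. Sema4d, which binds plexin B1 (chr13:51796616-51889116), had 30.3, 27.9, 27.8 and 30.6 FPKM in SE-BDEV, 29.2, 29.6, 27.5 and 25.9 FPKM in CON-BDEV and 33.2, 30.7, 31.2 and 30.1 FPKM in Vehicle libraries, with differences of -0.10 (adjusted p = 0.355) and -0.15 (0.111).

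Sema3f, a secreted repellent that acts through Nrp2 (chr9:107583832-107612806), lay the other way, with 5.31, 5.15, 5.25 and 4.63 FPKM in SE-BDEV, 5.23, 5.31, 5.06 and 4.80 FPKM in CON-BDEV and 4.78, 4.41, 4.47 and 4.57 FPKM in Vehicle libraries. Its differences of 0.13 in both comparisons were not called (adjusted p = 0.335 and 0.192 in limma). The summed level of the 20 semaphorins was 103 ± 4.12, 101 ± 3.09 and 105 ± 1.62 FPKM in SE-BDEV, CON-BDEV and Vehicle cells, and that of the 9 plexins 146 ± 9.40, 143 ± 3.41 and 140 ± 1.86 FPKM (SD, n = 4 each).

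The other Slits were not called: Slit2 averaged 8.49 ± 0.189, 8.42 ± 0.431 and 7.98 ± 0.363 FPKM and Slit1 2.34 ± 0.224, 2.25 ± 0.210 and 2.35 ± 0.139 FPKM in SE-BDEV, CON-BDEV and Vehicle cells (SD, n = 4 each). The summed level of the 4 Robo receptors stayed at 0.114 ± 0.0338, 0.0728 ± 0.0475 and 0.0847 ± 0.0244 FPKM in these groups.

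Of the netrin receptors, Unc5c (chr3:141128527-141497888) had 35.4, 36.0, 35.9 and 34.3 FPKM in SE-BDEV, 36.0, 33.8, 35.9 and 36.1 FPKM in CON-BDEV and 32.9, 33.6, 33.5 and 33.1 FPKM in Vehicle libraries. All 8 vesicle libraries were above Vehicle, but by 0.09 in both comparisons, which was not called (adjusted p = 0.244 and 0.162 in limma). Unc5b (chr10:60225342-60294329) had 60.3, 59.5, 74.0 and 62.5 FPKM in SE-BDEV, 59.9, 59.0, 57.9 and 64.4 FPKM in CON-BDEV and 59.2, 57.6, 58.4 and 60.004 FPKM in Vehicle libraries, so that 1 SE-BDEV library stood above the rest. Unc5a averaged 8.98 ± 1.27, 8.58 ± 0.811 and 8.98 ± 0.293 FPKM in SE-BDEV, CON-BDEV and Vehicle cells. Ntn3, the expressed netrin (chr17:24312375-24346332), had 4.31, 4.19, 4.59 and 4.14 FPKM in SE-BDEV, 4.52, 4.21, 4.42 and 4.42 FPKM in CON-BDEV and 3.82, 4.40, 4.71 and 4.47 FPKM in Vehicle libraries, with all groups overlapping. Its locus as deposited overlaps that of Tbc1d24 (2.30, 2.04 and 2.13 FPKM in SE-BDEV, CON-BDEV and Vehicle), so its values are uncertain.

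Of the ephrins, Efna5 (chr17:62952305-63230666) had 27.0, 28.4, 28.1 and 27.0 FPKM in SE-BDEV, 27.6, 26.5, 27.6 and 27.3 FPKM in CON-BDEV and 26.2, 26.2, 25.9 and 26.5 FPKM in Vehicle libraries. Its differences of 0.07 and 0.05 were among the most tightly measured and were not called (adjusted p = 0.349 and 0.355 in limma). Epha8, the highest Eph receptor (chr4:136485333-136512731), had 1.85, 1.68, 1.84 and 1.84 FPKM in SE-BDEV, 1.52, 1.87, 1.69 and 1.93 FPKM in CON-BDEV and 1.80, 1.83, 1.82 and 1.76 FPKM in Vehicle libraries, and the groups overlapped. Of the ephrins and Eph receptors limma called 0 of 7 with SE-BDEV and 0 of 8 with CON-BDEV, against 0.919% and 2.84% of all genes. At an unadjusted p under 0.05 there were 0 of 7 with SE-BDEV and 1 of 8, an ephrin, with CON-BDEV, against 14.8% and 19.1% of all genes. The ephrin Efnb2 was in the CON-BDEV fit only, so the 7 leave it out. Efna3, a low ephrin, had the widest spread of the expressed members in SE-BDEV cells, with 1.55, 0.342, 1.52 and 1.23 FPKM in SE-BDEV libraries.

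**Figure D3:**
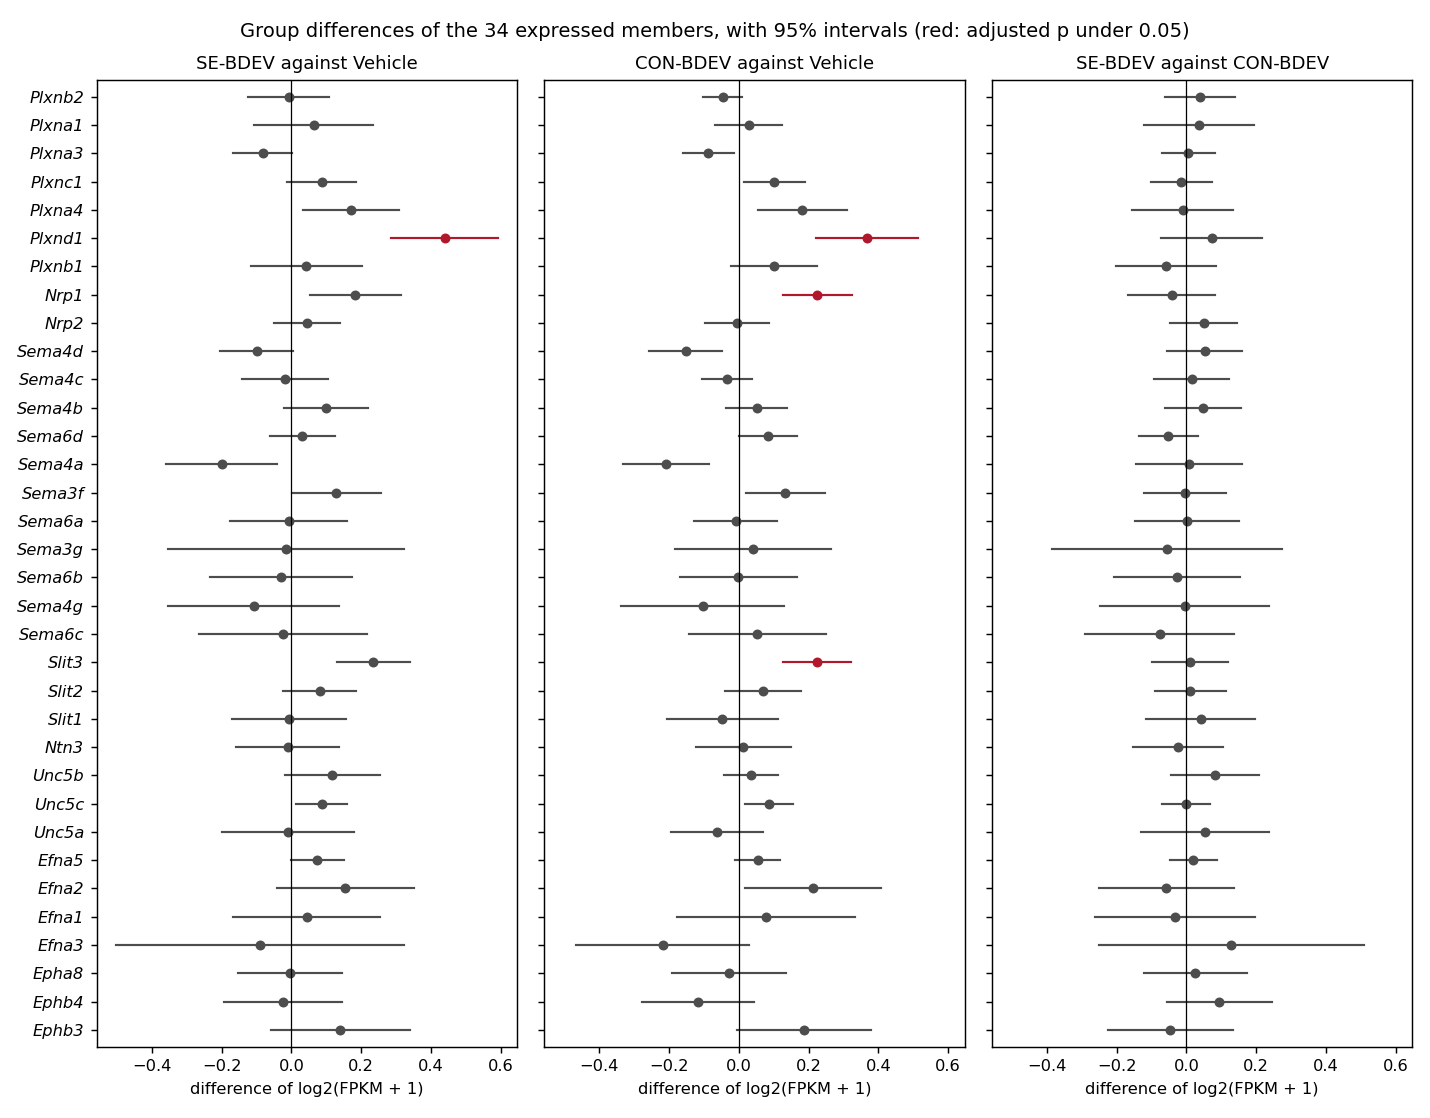
Differences of log2(FPKM + 1) with 95% intervals from limma for the 34 expressed members, by family, between SE-BDEV and Vehicle, CON-BDEV and Vehicle, and SE-BDEV and CON-BDEV; red marks an adjusted p under 0.05. Plxnd1 is red in both comparisons with Vehicle (0.44 and 0.37), Slit3 and Nrp1 only with CON-BDEV, and no member is red between the vesicle groups.

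The vesicle groups were set against each other to ask whether vesicles of the SE group act differently on these genes. SE-BDEV and CON-BDEV stand in separately made tables, tied through the Vehicle libraries, whose columns differed between the tables by at most 0.0335% in the median gene. In limma, 0 of 34 members were called, against 0% of 11312 genes, and at an unadjusted p under 0.05 there were 0 members and 296 genes (2.62%). Plxnd1 differed by 0.07 (95% interval -0.07 to 0.22), Slit3 by 0.01 (-0.10 to 0.12) and Nrp1 by -0.04 (-0.17 to 0.08). For 29 of 34 members the interval lay within 0.25 on either side of 0. Its half-width was 0.14 in the median, between 0.07 for Efna5 and 0.38 for Efna3, and a smaller difference could not be seen in these libraries. The intervals are not adjusted for the number of genes tested, so the adjusted test could also miss differences larger than the half-width. In 0 members were the groups free of overlap, against 0.76% of genes with SE-BDEV above and 0.628% with SE-BDEV below. Slit3 and Nrp1 were called with CON-BDEV and not with SE-BDEV, but neither was shown to differ between the vesicle groups.

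The spread within a group was widest in SE-BDEV: the median coefficient of variation of the 34 expressed members was 8.29% with SE-BDEV, 5.88% with CON-BDEV and 3.69% with Vehicle. Over all 11312 genes the median SD of log2(FPKM + 1) had the same order, 0.0898, 0.0739 and 0.0565. SE-BDEV library 2 was the lowest of its group for 17 of 34 members and the highest for 5. CON-BDEV library 2 was the lowest for 15 and the highest for 11. Vehicle library 1 was the lowest for 11 and the highest for 14. Such counts over all genes are not given here.

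A list of 109 genes that act in or below guidance receptors (adaptors, GTPase regulators, collapsin response mediators and cytoskeletal effectors) was looked at beside the members; 108 were in the tables and 86 were expressed. In SE-BDEV cells 1 of 86 rose and 0 fell, and in CON-BDEV cells 1 of 85 rose and 3 fell, shares near those of all genes (0.919% and 2.84%). Ablim1, an actin-binding LIM protein, rose in both, with 21.9 ± 1.60, 21.2 ± 1.29 and 17.1 ± 0.651 FPKM in SE-BDEV, CON-BDEV and Vehicle cells (SD, n = 4 each) and differences of 0.34 (adjusted p = 0.0178 in limma) and 0.29 (0.00947). Crmp1 and Dpysl2, collapsin response mediator proteins that relay semaphorin signals to the cytoskeleton, fell by 0.19 (adjusted p = 0.00569) and by 0.16 (0.0294) in CON-BDEV cells. Crmp1 had 122 ± 7.46, 122 ± 3.57 and 139 ± 2.17 FPKM and Dpysl2 18.8 ± 1.17, 19.1 ± 0.394 and 21.5 ± 0.554 FPKM in SE-BDEV, CON-BDEV and Vehicle cells. Mical1, a flavoprotein that acts on actin downstream of plexins, fell by 0.23 in CON-BDEV cells (adjusted p = 0.0219), with 19.0 ± 1.82, 18.6 ± 1.15 and 22.0 ± 0.418 FPKM in these groups. Between SE-BDEV and CON-BDEV 0 of the 86 were called.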

How the data were processed

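RNA-seq of 12 N2a libraries (4 per group) was analysed from deposited tables. The authors made FPKM values and group comparisons with TopHat2 and Cuffdiff on mm9, per the submitters' processing notes; versions, annotation and whether counting used the strand: not given in the sources used here. Libraries were polyA-selected with a directional kit, per the labels' protocols. One table held SE-BDEV and Vehicle, the other CON-BDEV and Vehicle. The authors' deposited comparison tables hold for each gene a p-value, a q-value and a log2 fold change, per the file headers.

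From the FPKM values, log2(FPKM + 1) was tested with limma 3.58.1 in R 4.3.3 (empirical Bayes with trend) over all genes averaging 1 FPKM or more in the fit, and p-values were adjusted by Benjamini-Hochberg. Each vesicle group was tested against Vehicle within its table over 8 libraries; other fits used 12, with Vehicle as the mean of both tables. All p-values are limma's except where the authors' table is named, and printed intervals are at 95%. The script was tested on simulated data. FPKM values carry no counts, so depth was estimated from the lowest values (up to 0.05 FPKM) of genes with transcripts of 1500 to 8000 bases in a newer annotation, and is approximate; the low number of libraries limits precision. Reads of overlapping loci (10 of 34 expressed members) may be shared. Members and gene lists were chosen with earlier results of these data known. Values in every library are given for members called in any fit, for the 10 with the smallest p over the 3 groups and for the highest member of each family; Sema3a, Efnb2 and Efna3 were added after their values were seen. Genes of the signalling list are named if called. Alternatives were a pseudocount of 0.1, no filter, a mean of at least 5 FPKM, median scaling, no trend, a replicate block and leaving out each library. Figures were drawn with matplotlib 3.10.9.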

Additional observations from a re-analysis of the deposited data

Results flagged for a closer look

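In 5 of 102 groups of 4 libraries (34 expressed members, 3 groups each) 1 library lay far from the other libraries of its group; chance alone would flag about 1 in 20 groups. Epha8, an Eph receptor, had 1.68 FPKM in SE-BDEV library 2, against 1.84 to 1.85 FPKM in the other SE-BDEV libraries. Sema4c, a membrane-bound semaphorin, had 17.6 FPKM in the same library, against 20.6 to 21.1 FPKM. Unc5c had 33.8 FPKM in CON-BDEV library 2, against 35.9 to 36.1 FPKM in the other CON-BDEV libraries. Ephb3 had 0.795 FPKM in Vehicle library 4, against 1.06 to 1.09 FPKM, and Sema4g had 1.48 FPKM in that library, against 2.01 to 2.11 FPKM in the other Vehicle libraries.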

How the results depend on the processing

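The numbers of members called moved with the settings, while the directions of the called members did not. Between SE-BDEV and Vehicle the count of 1 became 0 without a filter on low values, 2 with a mean of at least 5 FPKM, 2 with median scaling and 0 to 3 with 1 library left out. Between CON-BDEV and Vehicle the count of 3 became 0 without the filter, 1 without the mean-variance trend and 0 to 5 with 1 library left out. For both vesicle groups against Vehicle the count of 3 became 1 to 3 with 1 library left out. For any difference over the 3 groups the count of 2 became 1 without the filter, 1 without the trend and 0 to 3 with 1 library left out. Between SE-BDEV and CON-BDEV it was 0 in every setting. Over all genes, the 104 called between SE-BDEV and Vehicle became 0 without the filter (2021 at an unadjusted p under 0.05). This count was 138 with a mean of at least 5 FPKM, 133 with median scaling and 5 to 315 with 1 library left out. The 321 with CON-BDEV became 176 without the filter, 183 without the trend and 134 to 556 with 1 library left out. For both vesicle groups the 381 became 124 to 510 with 1 library left out. For any difference the 153 became 67 without the filter, 108 without the trend and 44 to 248 with 1 library left out.

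Replicate numbers recur in all groups, but the labels do not say that they pair libraries, and the correlations of the deviations of same-numbered libraries were not all above 0.1. They ran from -0.10 to 0.04 between SE-BDEV and Vehicle, from -0.06 to 0.02 between CON-BDEV and Vehicle and from -0.12 to 0.30 between SE-BDEV and CON-BDEV, where numbers 1 and 2 correlated best with their own number and 3 and 4 did not. With a replicate block the members called were 0 with SE-BDEV, 1 with CON-BDEV, 0 between SE-BDEV and CON-BDEV, 2 for both vesicle groups and 1 for any difference; over all genes 48, 135, 0, 256 and 92 were called. Of the differences between groups, the calls lost under the block were Plxnd1 with SE-BDEV (adjusted p = 0.0613 in limma), Slit3 (0.0736) and Nrp1 (0.0959) with CON-BDEV, and Nrp1 for both vesicle groups (0.0521).

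Of the log2 differences of 15 named members, those close to 0 changed sign. Under median scaling this held for Plxna3 between SE-BDEV and CON-BDEV (-0.0012) and Ntn3 for both vesicle groups (-0.0023). With 1 library left out, the differences between SE-BDEV and Vehicle ran from -0.011 to 0.018 for Epha8, -0.059 to 0.022 for Ntn3 and -0.042 to 0.048 for Plxnb2, and those between CON-BDEV and Vehicle from -0.059 to 0.013 for Epha8 and -0.036 to 0.045 for Ntn3. For both vesicle groups they ran from -0.031 to 0.0048 for Epha8, -0.048 to 0.034 for Ntn3 and -0.044 to 0.00055 for Plxnb2. Between SE-BDEV and CON-BDEV they ran from -0.016 to 0.056 for Epha8, -0.083 to 0.013 for Nrp1, -0.0081 to 0.026 for Plxna3, -0.069 to 0.028 for Plxna4, -0.030 to 0.0054 for Plxnc1, -0.029 to 0.033 for Sema3f, -0.035 to 0.051 for Sema4a, -0.034 to 0.034 for Slit3 and -0.023 to 0.014 for Unc5c. Apart from the alternative filters, which change the genes tested, and the fits with fewer libraries, the cause of these moves was not tested.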

Other observations

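Sema3a, the first known secreted class 3 semaphorin, stayed below 1 FPKM and was not tested. It had 0.125, 0.242, 0.167 and 0.147 FPKM in SE-BDEV libraries, 0.210, 0.0676, 0.124 and 0.127 FPKM in CON-BDEV libraries, and 0.0730, 0.0626, 0.0365 and 0 FPKM in Vehicle libraries. All SE-BDEV libraries and 3 of 4 CON-BDEV libraries were above the Vehicle range. These values stand for few fragments, and the gene was picked after its values were seen.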
